A study of Mus musculus with 6 samples.

Results

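7 genes of peripheral glia and neurons, Sox10, Cdh19, Mbp, Prx, Ret, Snap25 and Stmn2, were followed in RNA from mouse esophagus carrying carcinogen-induced squamous disease. They were chosen by name as genes of Schwann cells, enteric glia and neurons, were matched by symbol to Ensembl gene IDs, and are 7 of 54232 gene IDs listed in each library. All mice drank 4-nitroquinoline 1-oxide (4-NQO), a carcinogen that damages DNA, at 100 µg/ml from 8 weeks of age over 16 weeks, followed by 12 weeks without it. In the last 2.5 weeks they received intraperitoneal injections of 10 µg antibody, given 2 times a week. The antibody was DTA-1, an agonist of the T cell co-receptor GITR, in 3 libraries and an isotype control in the other 3. Neither group was free of carcinogen. The sources used here give neither strain nor sex. Nor do they state whether a library holds RNA of 1 mouse, and p-values reflect only the spread among these 6 samples, part of which may be technical. The tissue was esophagus from which invading cells had been enriched after peeling, and no step of the protocol isolates nerve.

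Nerve fibers reach the esophagus through the vagus and sympathetic nerves, and a plexus of enteric neurons and enteric glia lies between its muscle layers. Schwann cells descend from the neural crest under the transcription factor SOX10, and those that wrap large axons build myelin from lipids and a few abundant proteins. Enteric neurons descend from the same crest, and their precursors need the receptor tyrosine kinase RET and its glial cell line-derived ligands. The cell bodies of vagal and sympathetic fibers lie outside the organ, whereas their Schwann cells and the enteric neurons lie within it.

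The upstream sequence of Prx is shown because Prx was the member with an entry in the promoter table, taken from RefSeq on GRCm38.p6, which covered 67 of 98 symbols of members and companion genes. Scn7a and S100b, which are glial companion genes, are shown beside it and were chosen after their values were seen. Each run holds 250 bases that end just before the annotated start, written 5′ to 3′ on the gene's strand. Capitals mark the letters CCAAT or GCGTGGGCG on either strand.
Prx, chr7:27499074-27499323, plus strand: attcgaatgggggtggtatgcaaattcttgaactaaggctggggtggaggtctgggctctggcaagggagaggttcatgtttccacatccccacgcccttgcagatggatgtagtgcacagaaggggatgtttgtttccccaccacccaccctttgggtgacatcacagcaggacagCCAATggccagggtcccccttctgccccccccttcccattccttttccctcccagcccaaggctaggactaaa
S100b, chr10:76253586-76253835, plus strand: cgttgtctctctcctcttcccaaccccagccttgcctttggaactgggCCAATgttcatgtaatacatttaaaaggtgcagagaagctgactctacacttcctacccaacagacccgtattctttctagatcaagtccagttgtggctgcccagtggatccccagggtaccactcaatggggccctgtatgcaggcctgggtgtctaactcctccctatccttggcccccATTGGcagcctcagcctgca
Scn7a, chr2:66784911-66785160, minus strand: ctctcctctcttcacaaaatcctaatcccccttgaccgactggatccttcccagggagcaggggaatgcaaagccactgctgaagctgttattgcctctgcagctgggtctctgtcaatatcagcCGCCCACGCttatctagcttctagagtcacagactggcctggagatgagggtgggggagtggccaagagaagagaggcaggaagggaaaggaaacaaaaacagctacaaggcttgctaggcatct
The CCAAT letters lay 73 bases before the start of Prx, and 202 bases and, on the reverse strand, 20 bases before the start of S100b. CCAAT on either strand occurred in 33.8% of 32851 mouse promoters of this length. The letters GCGTGGGCG, which EGR-family factors such as the myelin regulator EGR2 recognize, lay on the reverse strand of Scn7a 125 bases before its start and occurred in 0.536% of all promoters. The SOX-type letters ACAAAG and ACAATG, on either strand, were in none of these 3 windows and in 16.5% and 10.7% of all promoters. The window of Gpr37l1, another glial companion gene, was also searched and is not printed. It held CCAAT 163 bases and, on the reverse strand, 108 bases before the start. Neither GCGTGGGCG nor the SOX-type letters were in it.

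The 6 libraries held 23147873 to 29065162 counts, and 3 reads, the floor used here, correspond to 0.103 to 0.130 CPM (counts scaled to a common total), covering counting error only. Levels below are CPM on library sizes scaled by TMM (trimmed mean of M values), and fold changes are DTA-1 over isotype. After a filter on low counts 15763 genes were tested with edgeR's quasi-likelihood test, and all 7 members passed the filter. By edgeR with Benjamini-Hochberg adjustment at 0.05, 0 of the 15763 genes were called (0%), the smallest adjusted p being 0.39. With no adjustment, edgeR gave p under 0.05 for 2006 genes (12.7%) and limma-voom for 2172. At an adjusted p under 0.05, limma-voom called 0 genes and DESeq2 called 180 of 16084 (1.12%), 43 higher and 137 lower. None of the 7 members was called by any of the 3 tools. The median log2 fold change of all tested genes was -0.03, and 47.1% of them were positive.

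Sox10 and Cdh19, which mark the glial lineage, varied several-fold among libraries of the same group. Sox10 encodes the transcription factor that specifies and maintains Schwann cells and enteric glia (ENSMUSG00000033006, chr15:79154908-79165240, minus strand, GENCODE M21 on GRCm38). It stood at 4.09, 8.15 and 8.51 CPM in DTA-1 libraries 1 to 3, against 2.32, 6.98 and 4.04 CPM in isotype libraries 1, 2 and 3. DTA-1 libraries 2 and 3 were the highest and isotype library 1 the lowest, and the groups overlapped. Means were 6.92 ± 2.46 CPM with DTA-1 and 4.45 ± 2.36 CPM with isotype (SD, n = 3 each). The log2 fold change was 0.64 ± 0.48 (SE), with an adjusted p of 0.549 in edgeR.

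Cdh19 encodes cadherin-19, an adhesion protein of Schwann cell precursors and non-myelinating Schwann cells (ENSMUSG00000047216, chr1:110888326-110977584, minus strand). It had 7.001, 14.4 and 12.8 CPM in DTA-1 libraries 1 to 3, against 2.21, 11.8 and 6.82 CPM in isotype libraries 1, 2 and 3. The highest library exceeded the lowest 6.52-fold, the widest span of the 7 genes, and the groups overlapped. The log2 fold change was 0.71 ± 0.58 (SE), with an adjusted p of 0.577 in edgeR. Reads of Cdh19 per read of Sox10 were 1.71, 1.77 and 1.497 in DTA-1 libraries 1, 2 and 3, and 0.952, 1.69 and 1.69 in isotype libraries 1, 2 and 3. The ratio therefore lay between 1.497 and 1.77 in 5 libraries, with isotype library 1 below them. In bulk tissue, fewer glial cells and less of this RNA per cell cannot be told apart.

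The glial genes S100b, Gpr37l1, Scn7a and Lgi4 had their 3 highest levels in the libraries where Sox10 was highest. These were DTA-1 libraries 3 and 2 and isotype library 2. S100b, a calcium-binding protein of Schwann cells and enteric glia, had 2.09, 7.26 and 9.20 CPM in DTA-1 libraries 1, 2 and 3, and 2.84, 5.77 and 4.29 CPM in isotype libraries 1, 2 and 3. Gpr37l1, a glial G protein-coupled receptor, had 1.91, 6.03 and 7.87 CPM in the DTA-1 libraries, as against 2.21, 5.28 and 3.36 CPM in the isotype libraries. Scn7a, a sodium channel of non-myelinating Schwann cells, had 20.8, 37.9 and 42.3 CPM in the DTA-1 libraries, as against 16.6, 32.3 and 26.3 CPM in the isotype libraries. Other genes of the same list had other libraries among their 3 highest. Ngfr, the low-affinity neurotrophin receptor, had 5.83, 11.3 and 3.55 CPM in DTA-1 libraries and 11.7, 15.6 and 8.59 CPM in isotype libraries. Gfap, a glial filament protein, was highest in isotype library 1 (3.06 CPM), and Foxd3, a neural crest factor, and Kcna1, a potassium channel, were highest in isotype library 3 (7.03 and 5.88 CPM). S100b, Gpr37l1, Scn7a and Lgi4 were chosen after their values were seen, and none was called, with adjusted p between 0.567 and 0.715 in edgeR.

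Of 16 companion genes of Schwann cells and enteric glia, 14 were tested, 7 with a positive and 7 with a negative fold change (median -0.06). edgeR called 0 of the 14. With single libraries left out the median ranged from -0.12 without isotype library 1 to 0.21 without isotype library 3. The groups did not overlap for L1cam and Ncam1, in opposite directions, where 9.38% of all tested genes lay wholly lower with DTA-1 and 8.6% wholly higher. L1cam, an adhesion molecule of axons and Schwann cells that epithelial and immune cells can also make, had 16.96, 12.7 and 14.97 CPM in DTA-1 libraries and 23.04, 21.95 and 19.3 CPM in isotype libraries (log2 fold change -0.53 ± 0.19 SE, edgeR adjusted p 0.39). Ncam1, an adhesion molecule of nerve and of muscle, had 35.9, 40.1 and 39.7 CPM in DTA-1 libraries and 27.9, 23.7 and 35.03 CPM in isotype libraries (log2 fold change 0.42 ± 0.18 SE, edgeR adjusted p 0.397). Striated muscle markers, summed over 10 genes, were also higher in every DTA-1 library, at 87930, 127800 and 96440 CPM against 54060, 39100 and 83000 CPM with isotype, and their part in the Ncam1 values was not tested. Erbb3, the neuregulin receptor of Schwann cells, which epithelium makes as well, had 70.4, 44.3 and 27.9 CPM in DTA-1 libraries and 64.8, 79.1 and 83.1 CPM in isotype libraries, with an edgeR adjusted p of 0.409.

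**Figure D1:**
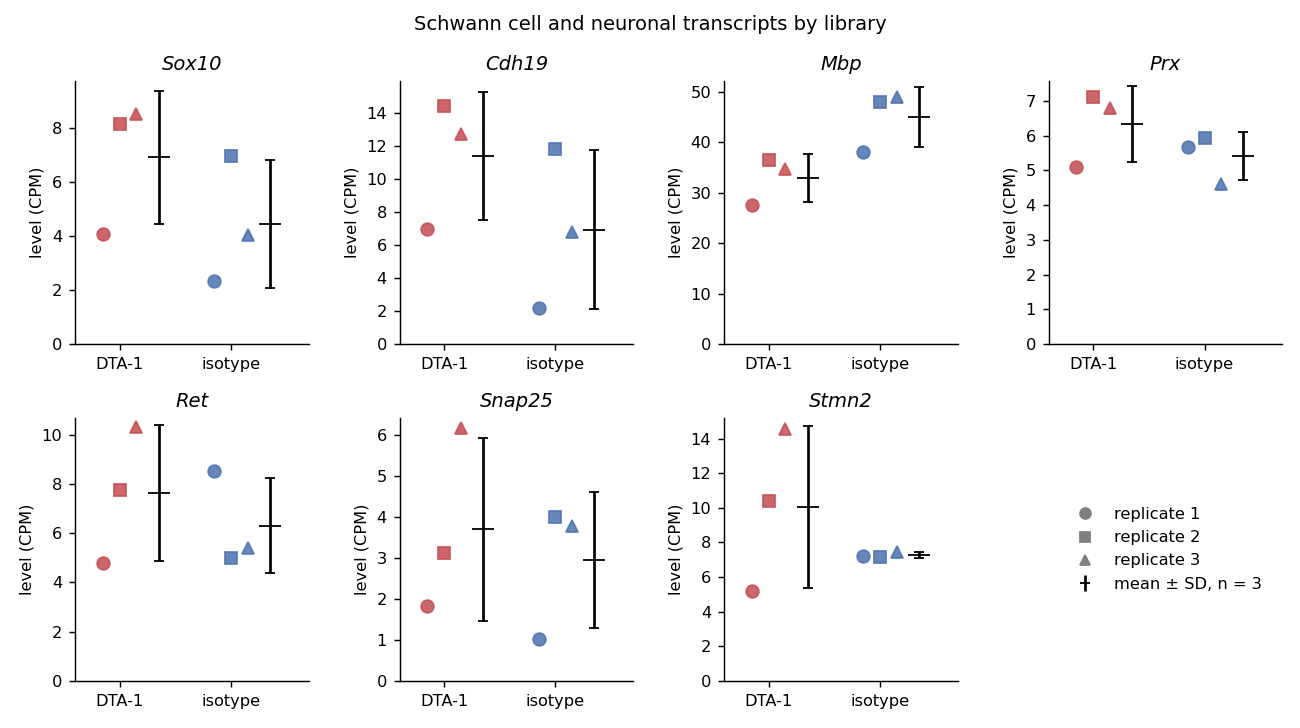
Level of each of the 7 genes in CPM (vertical axis) in 3 DTA-1 and 3 isotype libraries, 1 panel per gene, with points for libraries and the group mean ± SD. Mbp is the panel where the groups do not overlap, with DTA-1 libraries at 27.5 to 36.6 CPM and isotype libraries at 38.1 to 48.95 CPM.

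Among the myelin genes, Mbp had lower levels in all DTA-1 libraries, without passing the adjusted test, while the other members had higher means. Mbp encodes myelin basic protein, which compacts the cytoplasmic faces of the myelin sheath (ENSMUSG00000041607, chr18:82475146-82585637, plus strand). It stood at 27.5, 36.6 and 34.7 CPM in DTA-1 libraries 1 to 3, against 38.1, 47.9 and 48.95 CPM in isotype libraries 1, 2 and 3. The groups did not overlap, and 9.38% of all tested genes likewise lay wholly lower with DTA-1. Means were 32.9 ± 4.80 CPM with DTA-1 and 44.98 ± 5.97 CPM with isotype (SD, n = 3 each). The log2 fold change was -0.45 ± 0.18 (SE), and edgeR gave an unadjusted p of 0.0405 and an adjusted p of 0.39, at a level of p where 7.52% of all tested genes were counted as lower. DESeq2 gave an unadjusted p of 0.0753 and an adjusted p of 0.385. The groups also did not overlap by relative log expression scaling, at 37.39 CPM for the highest DTA-1 and 37.41 CPM for the lowest isotype library, or by library totals alone. They overlapped by upper-quartile scaling, where the same libraries stood at 38.38 and 37.39 CPM.

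The Mbp gene also gives rise to golli transcripts, which are made outside myelin, in T cells among others, and counts per gene do not separate them from the transcripts of myelin. The 6 T cell markers summed to 4.26, 5.28 and 2.70 CPM in DTA-1 libraries 1 to 3, against 6.89, 9.02 and 6.39 CPM in isotype libraries 1, 2 and 3. All 6 had a negative fold change, none was at 0 in any library, and 3 of them were wholly lower with DTA-1, as were 9.38% of all tested genes. Squamous epithelium markers, 8 genes, summed to 26500, 7526 and 8151 CPM in the DTA-1 libraries, as against 29940, 37010 and 38390 CPM in isotype libraries, and all 8 had a negative fold change. The part of either tissue component in the Mbp values was not tested.

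Prx encodes periaxin, a scaffold protein that Schwann cells need to keep myelin stable (ENSMUSG00000053198, chr7:27499324-27520214, plus strand). It had 5.09, 7.11 and 6.80 CPM in DTA-1 libraries 1 to 3, against 5.68, 5.92 and 4.62 CPM in isotype libraries 1, 2 and 3. The groups overlapped, and the log2 fold change was 0.23 ± 0.26 (SE), with an adjusted p of 0.693 in edgeR. An antisense gene, Gm15541, lies within Prx and had 4 to 18 counts per library, against 117 to 159 for Prx. The sources used here do not give the strand setting of the counting.

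The myelin companion genes were mixed in direction, with 13 of 18 tested, 7 positive and 6 negative (median 0.22), and edgeR called none of them. That median was 0.087 without DTA-1 library 3 and 0.65 without DTA-1 library 1, the ends of its range with single libraries left out. Drp2, a dystrophin-related protein that partners periaxin at the Schwann cell surface, had 6.13, 8.39 and 10.1 CPM in DTA-1 libraries and 5.34, 5.17 and 5.77 CPM in isotype libraries. It was the tested myelin companion with no overlap between groups, and 8.6% of all tested genes likewise lay wholly higher with DTA-1. Its log2 fold change was 0.60 ± 0.27 (SE), with an edgeR adjusted p of 0.399. Egr2, the transcription factor that drives myelination, had 0.609, 1.23 and 1.24 CPM in DTA-1 libraries and 5.05, 1.21 and 0.902 CPM in isotype libraries, and macrophages express it too. The macrophage markers, 6 genes, summed to 103, 162 and 254 CPM in DTA-1 libraries and 369.6, 239.3 and 97.7 CPM in isotype libraries. Isotype library 1 was the highest for both, and also for the fibroblast markers, at 2966 CPM. The part of either component in the Egr2 values was not tested. Pmp2, a lipid-binding myelin protein, was at 0 in all 6 libraries.

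Reads of Mbp per read of Sox10 were 6.72, 4.49 and 4.08 in DTA-1 libraries 1, 2 and 3, and 16.4, 6.86 and 12.1 in isotype libraries 1, 2 and 3. All DTA-1 values lay below all isotype values, but narrowly, at 6.72 in DTA-1 library 1 and 6.86 in isotype library 2. Mbp alone was already lower in all DTA-1 libraries by the TMM scaling used here. The ratio does not depend on library scaling, was chosen after the levels were seen and carries no test.

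**Figure D2:**
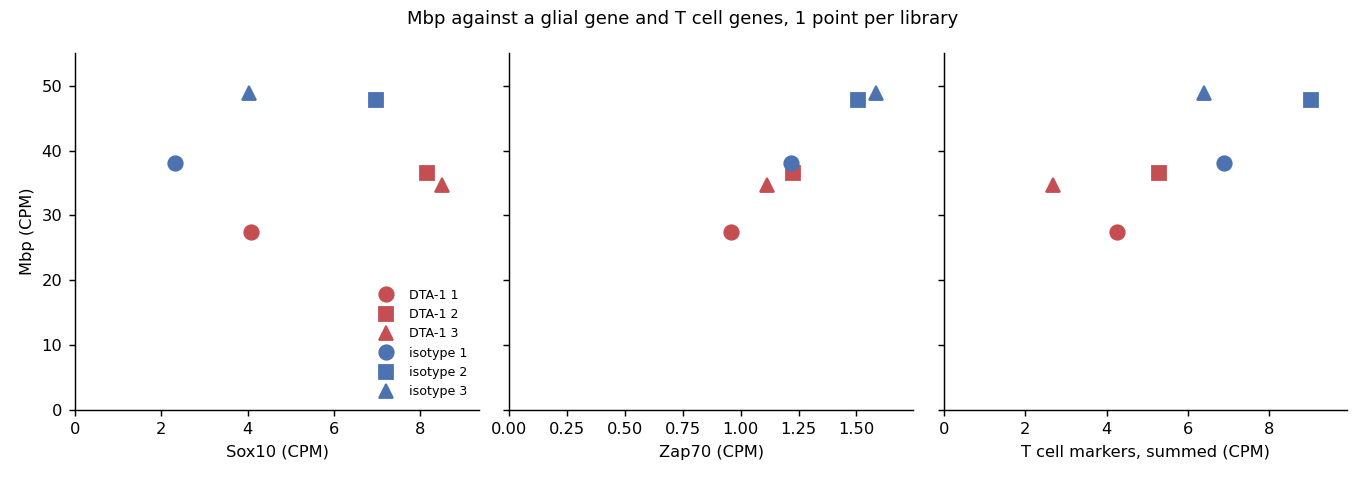
Mbp in CPM (vertical axis) against Sox10, Zap70 and the sum of 6 T cell markers in CPM (horizontal axes of the 3 panels), with 1 point per library, DTA-1 in red and isotype in blue. Zap70 was picked for its likeness to Mbp over these same libraries, so its panel carries no test. DTA-1 libraries 2 and 3 lie at the highest Sox10 levels, 8.15 and 8.51 CPM, but have less Mbp than any isotype library.

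Ret, Snap25 and Stmn2, the neuronal members, had their highest levels in DTA-1 library 3. Ret encodes the receptor of glial cell line-derived ligands on enteric neurons and their precursors (ENSMUSG00000030110, chr6:118151745-118197718, minus strand). It had 4.78, 7.77 and 10.3 CPM in DTA-1 libraries 1 to 3, against 8.51, 4.98 and 5.41 CPM in isotype libraries 1, 2 and 3. DTA-1 library 1 was the lowest and DTA-1 library 3 the highest, and the log2 fold change was 0.27 ± 0.37 (SE), with an edgeR adjusted p of 0.738. Without DTA-1 library 3 it was -0.0038.

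The ligands and co-receptors of RET had overlapping groups. Gdnf, which acts on RET through GFRA1, had 6.09, 6.36 and 3.94 CPM in DTA-1 libraries and 2.43, 4.60 and 7.68 CPM in isotype libraries. Gfra1 had 7.48, 11.9 and 10.9 CPM with DTA-1 and 5.23, 11.5 and 14.5 CPM with isotype. Gfra2, the co-receptor that binds neurturin, had 7.65, 14.0 and 15.1 CPM with DTA-1 and 26.1, 7.39 and 6.20 CPM with isotype, and like Ret it was higher in isotype library 1 than in the other isotype libraries. Calca, a marker of thyroid C cells, which also make RET, had 0 to 4 counts per library.

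All 10 genes of the RET, endothelin B and neuregulin list were tested, 2 with a positive and 8 with a negative fold change (median -0.17), and edgeR called none. With single libraries left out the median ranged from -0.24 without isotype library 3 to -0.039 without DTA-1 library 1. Erbb2, the signaling partner of ERBB3 and a receptor of epithelium too, had 72.8, 38.1 and 29.4 CPM in DTA-1 libraries and 87.1, 87.8 and 86.9 CPM in isotype libraries. The 3 isotype libraries were nearly equal and all DTA-1 libraries were below them, while 9.38% of all tested genes likewise lay wholly lower. The log2 fold change of Erbb2 was -0.90 ± 0.33 (SE), with an edgeR adjusted p of 0.39. Without DTA-1 library 1 the log2 fold change was -1.37 and the edgeR adjusted p 0.0302. That fit called 601 of 16303 genes. With any other single library left out, the edgeR adjusted p of Erbb2 was 0.301 to 0.859. The squamous markers given above were lowest in the same DTA-1 libraries, 2 and 3, and their part in the Erbb2 and Erbb3 values was not tested. Edn3, the endothelin that guides enteric precursors through EDNRB, had 1.57, 2.36 and 2.27 CPM with DTA-1 and 1.59, 1.25 and 1.26 CPM with isotype (edgeR adjusted p 0.448). Ece1, the protease that activates endothelins, had 121, 123 and 96.3 CPM with DTA-1 and 194.9, 112.5 and 127 CPM with isotype (edgeR adjusted p 0.516).

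Snap25 encodes a SNARE protein of the synaptic vesicle fusion machinery in neurons and endocrine cells (ENSMUSG00000027273, chr2:136713453-136782428, plus strand). It was the lowest member per length, with 1.83, 3.11 and 6.16 CPM in DTA-1 libraries 1 to 3, against 1.03, 4.00 and 3.79 CPM in isotype libraries 1, 2 and 3. These rest on 42, 66 and 144 reads with DTA-1 and 28, 106 and 105 reads with isotype. The highest library exceeded the lowest 5.97-fold, and the log2 fold change was 0.33 ± 0.63 (SE), with an edgeR adjusted p of 0.82. It was -0.25 without DTA-1 library 3 and -0.06 without isotype library 1.

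Snap23, the paralog of Snap25 that most cell types use, differed little between libraries, at 47.8 ± 2.28 CPM with DTA-1 and 44.97 ± 1.90 CPM with isotype (SD, n = 3 each, log2 fold change 0.09 ± 0.13 SE, edgeR adjusted p 0.766). Of 12 synaptic vesicle release genes all 12 were tested, 10 with a positive and 2 with a negative fold change (median 0.25), and edgeR called 0 of them. The SNARE partner Stx1a had 1.39, 1.74 and 2.10 CPM in DTA-1 libraries and 5.42, 3.09 and 1.52 CPM in isotype libraries (edgeR adjusted p 0.43). Vamp1, which striated muscle expresses as well, averaged 30.9 ± 6.56 CPM with DTA-1 and 22.5 ± 6.65 CPM with isotype (SD, n = 3 each), with an edgeR adjusted p of 0.448. Sv2b, a synaptic vesicle glycoprotein, averaged 76.7 ± 34.9 CPM with DTA-1 and 46.1 ± 22.8 CPM with isotype (SD, n = 3 each), with an edgeR adjusted p of 0.458.

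Stmn2 encodes stathmin-2, a tubulin-binding protein of growing and regenerating axons (ENSMUSG00000027500, chr3:8509360-8561606, plus strand). It had 5.22, 10.4 and 14.6 CPM in DTA-1 libraries 1 to 3, against 7.22, 7.17 and 7.47 CPM in isotype libraries 1, 2 and 3. The isotype libraries were close to one another, and the DTA-1 libraries lay on both sides of them. Means were 10.1 ± 4.67 CPM with DTA-1 and 7.29 ± 0.159 CPM with isotype (SD, n = 3 each), at a log2 fold change of 0.47 ± 0.37 (SE) with an edgeR adjusted p of 0.57. Among its paralogs, Stmn1, a gene of dividing cells, averaged 0.773 ± 0.273 CPM with DTA-1 and 1.42 ± 0.388 CPM with isotype (log2 fold change -0.87 ± 0.44 SE, edgeR adjusted p 0.415). Stmn3 averaged 1.37 ± 0.812 CPM with DTA-1 and 0.996 ± 0.160 CPM with isotype, with an edgeR adjusted p of 0.683 and a log2 fold change that changed sign with 1 library left out. Stmn4 had 1.17, 1.93 and 2.18 CPM with DTA-1 and 0.811, 0.943 and 1.41 CPM with isotype (edgeR adjusted p 0.44).

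Of 17 neuron and axon genes 13 were tested, 10 with a positive and 3 with a negative fold change (median 0.46), and edgeR called 0 of them. Map1b, a microtubule protein of growing axons, had 61.0, 63.0 and 118 CPM in DTA-1 libraries and 52.9, 53.0 and 55.2 CPM in isotype libraries. Like Stmn2 it was nearly constant over the isotype libraries and highest in DTA-1 library 3. Its groups did not overlap (log2 fold change 0.59 ± 0.27 SE, edgeR adjusted p 0.403), and 8.6% of all tested genes likewise lay wholly higher with DTA-1. Uchl1, a ubiquitin hydrolase abundant in neurons, had 18.4, 25.3 and 89.3 CPM in DTA-1 libraries and 32.1, 20.7 and 20.5 CPM in isotype libraries, again with its highest value in DTA-1 library 3. Vsnl1, a neuronal calcium sensor, had 8.26, 6.78 and 8.94 CPM in DTA-1 libraries and 29.7, 22.8 and 7.07 CPM in isotype libraries. Its unadjusted p in edgeR was 0.0312 and its adjusted p 0.39. The adipocyte markers, 6 genes, were also highest in DTA-1 library 3, summing to 152, 137 and 748 CPM in DTA-1 libraries and 41.5, 239.6 and 113 CPM in isotype libraries, and their part in these values was not tested.

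Of 18 genes of enteric and autonomic neuron identity 14 were tested, 12 with a positive and 2 with a negative fold change (median 0.48), and edgeR called none. Th, the rate-limiting enzyme of catecholamine synthesis and a marker of sympathetic fibers, had 7.52, 7.73 and 12.3 CPM in DTA-1 libraries and 6.27, 2.23 and 6.31 CPM in isotype libraries. Ddc, the next enzyme of that pathway, had 3.17, 3.20 and 2.74 CPM with DTA-1 and 1.33, 1.47 and 2.63 CPM with isotype. In both genes each DTA-1 library lay above each isotype library, as was so for 8.6% of all tested genes. Their log2 fold changes were 0.90 ± 0.45 and 0.74 ± 0.37 (SE), with an edgeR adjusted p of 0.415 for each. Dbh, a catecholamine enzyme on the same list, had 0.261, 0.189 and 1.37 CPM with DTA-1 and 0.184, 0.754 and 0.649 CPM with isotype. Its groups overlapped (log2 fold change 0.20 ± 0.86 SE, edgeR adjusted p 0.927), and it rests on 4 to 32 reads per library.

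Nos1, the nitric oxide synthase of inhibitory enteric neurons, which striated muscle fibers express as well, had 275.5, 337 and 240.1 CPM with DTA-1 and 119.9, 152 and 318 CPM with isotype (edgeR adjusted p 0.529). The striated muscle markers were lowest in isotype libraries 1 and 2, as Nos1 was, and their part in it was not tested. Vip, a neuropeptide of inhibitory enteric neurons, had 7.96, 22.9 and 42.65 CPM with DTA-1 and 10.3, 10.9 and 22.7 CPM with isotype. Its groups overlapped, and Chat, the acetylcholine-synthesizing enzyme, and Calb2, a calcium-binding protein of enteric neurons, were at most 0.180 and 0.0737 CPM in any library. Without DTA-1 library 3 the medians of the neuron and axon, the enteric and autonomic, and the synaptic vesicle lists were -0.0061, -0.12 and -0.098, the low ends of their ranges with single libraries left out. The high ends were 0.76 and 0.54 for the neuron and axon and the synaptic vesicle lists, without DTA-1 library 1, and 1.11 for the enteric and autonomic list, without isotype library 3.

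**Figure D3:**
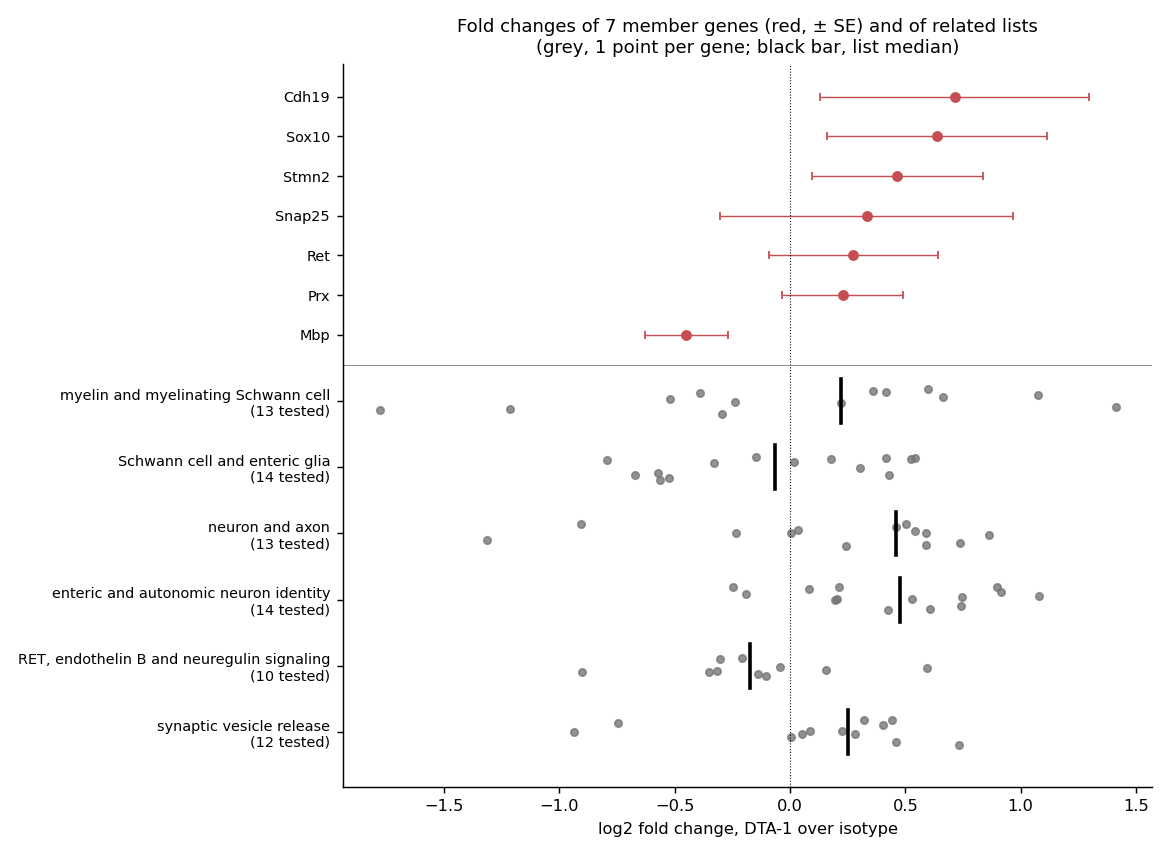
Log2 fold change, DTA-1 over isotype (horizontal axis), of the 7 members with their SE in red and of the tested genes of 6 companion lists in grey, with a black bar for each list's median. Mbp, at -0.45, is the member to the left of 0, and list medians run between -0.17 and 0.48.

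Over the 7 members, 6 fold changes were positive and 1 was negative, with a median of 0.33. With each library left out in turn the median lay between 0.10, without DTA-1 library 3, and 0.66, without DTA-1 library 1. Per kilobase of exon, the mean level fell in the order Mbp, Cdh19, Sox10, Stmn2, Prx, Ret and Snap25 in both groups. The levels were 3.89, 2.66, 2.27, 1.80, 1.135, 1.127 and 0.545 CPM per kilobase with DTA-1, and 5.31, 1.62, 1.46, 1.30, 0.969, 0.932 and 0.433 CPM per kilobase with isotype, in that order of genes. The gap between Mbp and Cdh19 exceeded their SDs in isotype libraries, at 5.31 ± 0.705 against 1.62 ± 1.12 CPM per kilobase (SD, n = 3 each). With DTA-1 the same genes stood at 3.89 ± 0.566 and 2.66 ± 0.909 CPM per kilobase (SD, n = 3), so that their SDs overlapped. Stmn2 and Prx, at 1.30 ± 0.0285 and 0.969 ± 0.124 CPM per kilobase, were also separated beyond their SDs in isotype libraries (SD, n = 3 each) but not with DTA-1. For the other neighbors in the order the SDs overlapped in both groups. Lengths count every annotated exon of a gene, which lowers the value of genes with long or alternative exons.

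**Figure D4:**
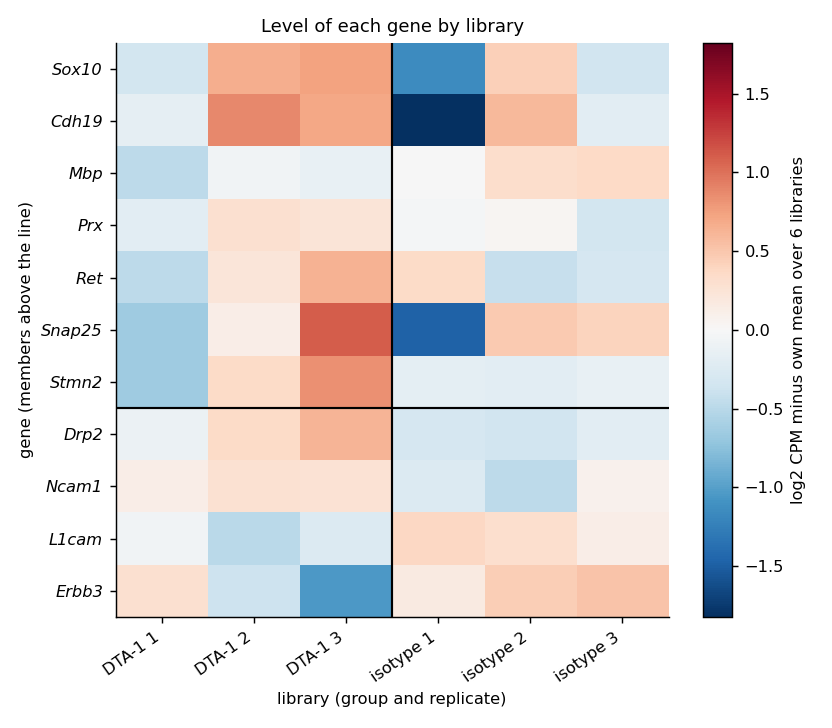
Log2 CPM of the 7 members and of 4 glial and myelin companion genes (rows) in each library (columns), relative to the gene's own mean over 6 libraries, with red for higher and blue for lower. Sox10 and Cdh19 are lowest in isotype library 1, at 2.32 and 2.21 CPM, while Mbp is lowest in DTA-1 library 1, at 27.5 CPM.

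For each member, the 3 tested genes most like it were found by Pearson r of log2 CPM over the 6 libraries, which share their tissue makeup, and the values of r ran from 0.966 to 0.998 without a test. Sox10 was most like Ramp2, an accessory protein of the adrenomedullin receptor (r = 0.99), Btnl9 and Fgfr1, a fibroblast growth factor receptor. Cdh19 was most like Opcml, a cell adhesion molecule of neurons (r = 0.99), Lrrn3 and Astn2. Mbp was most like Zap70, the kinase of the T cell receptor (r = 0.99), Vnn3 and Ccser1. Zap70 had 0.957, 1.23 and 1.11 CPM in DTA-1 libraries 1 to 3, against 1.22, 1.51 and 1.59 CPM in isotype libraries 1, 2 and 3. These rest on 22 to 44 reads per library.

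Prx was most like Ciao1, of cytosolic iron-sulfur assembly (r = 0.99), Arap3, a GTPase-activating protein, and Nrp1, a semaphorin and vascular growth factor co-receptor. Ret was most like Hexa, a lysosomal hexosaminidase subunit (r = 0.99), Dll4, a Notch ligand of endothelium, and Mtch1. Snap25 was most like Zfp287 (r = 0.995), Enpp5 and Tmem47. Stmn2 was most like Hic1, a transcriptional repressor (r = 0.998), Jph4, a junctophilin of neurons, and Grina. Endothelial markers, 6 genes, summed to 175, 235 and 265 CPM in DTA-1 libraries and 177, 177 and 178 CPM in isotype libraries, and their part in these likenesses was not tested.

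Other tissue components differed between the libraries in which the members were high and low. Melanocytes, which also need SOX10, left few reads, since Mlana, Tyr, Tyrp1 and Dct had 0 to 6 counts per library. Pmel, another melanocyte marker, had 5 to 21 counts per library, and Mitf, which other cells share, had 285 to 443. The smooth muscle gene Myh11 had 994, 143 and 2519 CPM in DTA-1 libraries and 112, 2895 and 2073 CPM in isotype libraries. DTA-1 library 2 was therefore low in Myh11 while high in Sox10 and Cdh19, and isotype library 1 was low in all 3. Fibroblast markers, 6 genes, summed to 695, 1209 and 1651 CPM with DTA-1 and 2966, 1090 and 776 CPM with isotype. B cell markers, 6 genes, summed to 37.6, 365 and 376 CPM with DTA-1 and 5.27, 189 and 9.63 CPM with isotype, and red blood cell genes, 5 genes, to 103, 2899 and 120.4 CPM with DTA-1 and 98.2, 172 and 85.1 CPM with isotype. The endocrine gene Chga had 387 reads in isotype library 3 and 6 to 34 in the others, and Snap25 was not highest there. The part of these components in the members' values was not tested.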

How the data were processed

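For each of 6 libraries the authors deposited raw counts of reads by Ensembl gene, as whole numbers. The tools named per the submitters' processing notes are HTSeq 0.6.1p1, cutadapt 1.13, DESeq2 1.14.1 and STAR, with build mm10, while the sources used here give no roles or settings. Counts of overlapping and antisense genes are therefore uncertain. Of 54232 gene IDs, 153 had no symbol in the reference annotation. All pairs of libraries differed beyond sampling noise (smallest median chi-square per gene 4.72, against 0.455 for noise).

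In R 4.3.3 with edgeR 4.0.16, filterByExpr (minimum count 10, minimum total 15) left 15763 genes, which after TMM scaling entered a robust quasi-likelihood fit of treatment alone, and p-values were adjusted over them by Benjamini-Hochberg at 0.05. The steps were tested on simulated data. DESeq2 1.42.0, limma-voom (limma 3.58.1), 3 other scalings, 2 other filters, a replicate block, omission of 10 striated muscle genes and omission of each library in turn were tried as alternatives. For likeness, log2 CPM used a prior count of 2. The members and lists were chosen with earlier results of these data known. Named genes were all members, in each companion list the 3 of smallest p, the paralogs Snap23, Stmn1, Stmn3 and Stmn4, the 3 genes most like each member, and cell type markers. Some genes that the rule selected are not reported here. Other genes were named after their values were seen.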

Additional observations from a re-analysis of the deposited data

How the results depend on the processing

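The 7 members gave 0 calls by edgeR, DESeq2, limma-voom and every other scaling, filter and library omission tried. Over all genes, DESeq2 called 180, and edgeR without a single library called 0 to 601, the 601 without DTA-1 replicate 1, where 2 companion genes, among them Erbb2, were called, the range without a single library being 0 to 2. Library totals alone shifted the median of all genes from -0.03 to -0.19 and turned the sign of Mtch1 (-0.072), Zfp287 (-0.0059), Grina (-0.081) and Snap23 (-0.072). Leaving out single libraries turned signs within these ranges of log2 fold change: Ret -0.0038 to 0.57, Snap25 -0.25 to 0.66, Stmn3 -0.083 to 0.81, Hexa -0.048 to 0.52, Dll4 -0.00063 to 0.43, Mtch1 -0.029 to 0.23, Zfp287 -0.020 to 0.29, Enpp5 -0.14 to 0.50 and Grina -0.0073 to 0.16. The cause was not tested. Without a single library, Sox10 ranged from 0.34 to 1.135, Cdh19 from 0.30 to 1.35, Prx from 0.14 to 0.36, Stmn2 from 0.10 to 0.78 and Mbp from -0.54 to -0.34, and Mbp was negative under all alternatives.

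Same-numbered libraries did not deviate together from their group means (r of 0.0167, -0.333 and -0.0864). The check cannot exclude a pairing by number, since each group mean rests on only 3 libraries. With the replicate number as a block edgeR called 0 genes and counted 1632 at an unadjusted p under 0.05, against 2006 without it. The block gave Cdh19 a log2 fold change of 0.94 (adjusted p 0.475) and Mbp -0.45 (adjusted p 0.476). Snap25, with 28 to 144 reads per library, is the member whose values depth limits most.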
